A study of Macrobrachium rosenbergii with 20 samples.

Results

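The hepatopancreas of the giant freshwater prawn, Macrobrachium rosenbergii, was examined for transcripts whose level followed the weight gain recorded for the sample. Of the 20 RNA libraries in the table, the 10 made from hepatopancreas were used, 5 from adult females and 5 from adult males of the strain labelled CMr1. No treatment or genotype is given in the labels, and the libraries from ovary and testis served only to mark tissue classes. Each library carries a weight gain label, without a unit. In females the labels were 4.33, 6.78, 7.05, 7.21 and 4.45 for replicates 1 to 5, with a mean of 5.96 ± 1.45 (SD, n = 5). In males they were 2.06, 3.69, 1.61, 2.83 and 2.77, with a mean of 2.59 ± 0.797. No female label lay as low as the highest male label, so weight gain was read as a slope within each sex. Of 30260 transcripts, 6582 had 10 or more estimated counts in at least 5 of the 10 libraries and were tested.

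The hepatopancreas is the main digestive gland of decapod crustaceans. It secretes digestive enzymes, takes up nutrients, stores lipid and glycogen, detoxifies, and in females it contributes yolk precursor for the eggs. Growth in crustaceans proceeds through moults, which draw on these stores, and in this species adult males and females differ in growth. The table names transcripts by read cluster IDs alone, and 0 of the 30260 could be found among the 31758 genes of the RefSeq gene list, so no transcript can be given a function here. Transcripts are described by level, tissue class, sex pattern and the class words of their IDs.

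The spread of weight gain was uneven between the sexes and between samples. Females held 76.7% of the sum of squares on which the within-sex slope rests and males held 23.3%. Females 1 and 5, with the low labels, held 24.5% and 21% of it, and females 2, 3 and 4 lay together at 6.78 to 7.21. In females the slope is therefore close to a contrast of 2 samples with 3. Among males, male 2 (3.69) and male 3 (1.61) held 11.1% and 8.85%, and males 4 and 5 held 0.52% and 0.291%. Library totals ran from 9025144 counts in female 1 to 18355650 in male 1.

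Several libraries stood apart from others of their sex. Transcripts present in both hepatopancreas groups and in neither gonad (1 CPM, a count scaled to the library total, or more in at least 4 of 5 libraries of a group) took 34.6% to 61.8% of the counts of each library, the lowest share in female 4. Transcripts present in ovary or testis but in neither hepatopancreas group took 5.90% of the counts of female 4 (95% exact binomial interval 5.89% to 5.91%, counting error only). Their share was 0.237% in female 3 and 0.0686% to 0.0993% in the other 8 libraries. Most of the excess in female 4 was in the 516 transcripts present in testis alone, which took 5.28% of its counts and 0.0156% to 0.0625% elsewhere, and 10 of them held 86.1% of that class's counts. Female 4 also carries the highest weight gain label among the 10 samples, and the slopes were fitted with and without it. Leaving it out also removes its 14.2% of the within-sex sum of squares, so such fits do not isolate this signal. On the first principal component of log2 CPM (28.8% of variance), males 1 to 4 lay between -60.3 and -57.3, while male 5 lay at 18.8, nearer to the females (29.7 to 68.7). Female 3 lay at -110 on the second component (21.2%), away from the other females (13.5 to 51.6).

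**Figure D1:**
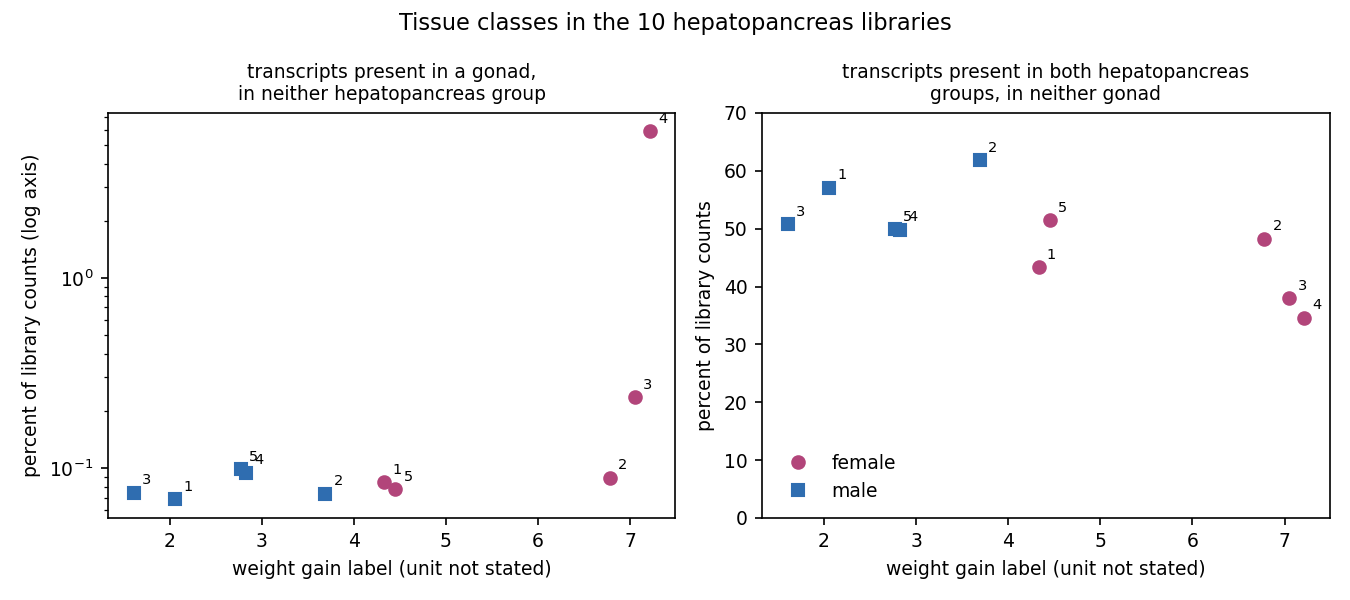
Percent of library counts (vertical) against the weight gain label (horizontal, unit not stated) for transcripts present in a gonad and in neither hepatopancreas group (left, log axis) and for transcripts present in both hepatopancreas groups and in neither gonad (right). Each point is 1 library, numbered by replicate; female 4 lies at 5.90% in the left panel, and the other 9 libraries lie at or under 0.237%.

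The first question was whether any hepatopancreas transcript followed weight gain within sex. No transcript passed a Benjamini-Hochberg adjusted p of 0.05 in edgeR's quasi-likelihood test (0 of 6582, 0%), and the smallest adjusted p was 0.751. At an unadjusted p under 0.05 there were 405 transcripts (6.15% of those tested), 306 with a slope above 0 (4.65%) and 99 with a slope below 0 (1.5%). DESeq2 called 98 transcripts (1.49%), 83 with a slope above 0 and 15 below. The median slope over all transcripts tested was 0.02 on the log2 scale per unit of weight gain, and 53.8% of slopes were above 0. With all 20 libraries in the fit the median was -0.0065, and 48.5% of slopes were above 0. The median standard error of a slope was 0.18, which over the female range of 2.88 units comes to 0.53 on the log2 scale.

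**Figure D2:**
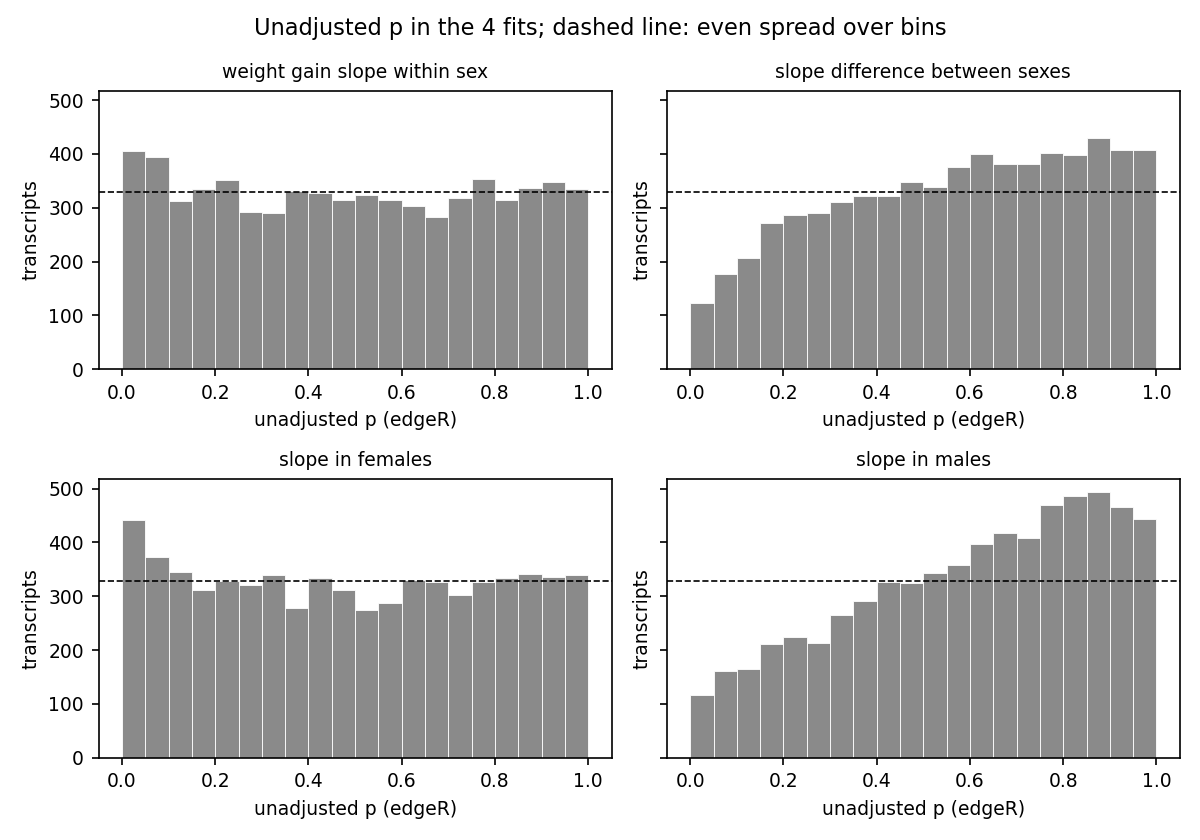
Number of transcripts (vertical) by unadjusted edgeR p in bins of 0.05 (horizontal) for the slope within sex, the difference of slopes between sexes, the slope in females and the slope in males; the dashed line marks an even spread. The lowest bin holds 405 transcripts for the slope within sex and 442 in females, against 124 for the difference and 117 in males.

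The 4 transcripts described next had the smallest unadjusted p in each direction among those with a mean of at least 5 CPM, slopes of the same sign in both sexes and an unadjusted p under 0.05 whichever library was left out. In all, 26 transcripts with a slope above 0 and 10 below 0 met those conditions. None of the 4 passed the adjusted test in edgeR, and their values are given as a description of the strongest within-sex trends.

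Transcript transcript_HQ_Female_transcript6951/f53p0/1720, 1720 bases long, had the smallest p of the 26 with a slope above 0. In females, in order of weight gain, it stood at 0.652, 0.824, 2.36, 9.76 and 5.145 CPM. In males, in the same order, it stood at 2.245, 9.45, 4.71, 9.73 and 20.2 CPM. The 3 females with high labels thus all lay above the 2 with low labels, and the males with the lowest and highest labels held the lowest and highest levels. The counts behind these values ran from 8 in female 1 to 240 in male 2, so the levels of females 1 and 5 rest on few reads. The slope was 1.12 ± 0.23 (SE) per unit in log2, with an unadjusted p of 0.000732 and an edgeR adjusted p of 0.751. It was 1.13 ± 0.28 in females and 1.1 ± 0.44 in males.

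Transcript transcript_HQ_Female_transcript10999/f67p0/1396 was the other with a slope above 0. Its levels in females, in order of weight gain, were 5.79, 8.54, 36.6, 65.7 and 27.85 CPM. In males they were 4.27, 9.45, 27.0, 7.67 and 18.5 CPM. Females with high and low labels did not overlap, while in males the lowest level was in male 3, with the lowest label, and the highest in male 5, in the middle of the range. The slope was 0.99 ± 0.22 per unit, with an unadjusted p of 0.00152 and an edgeR adjusted p of 0.751.

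Of those with a slope below 0, transcript_HQ_Female_transcript9560/f2p0/1546 had the smallest p of all transcripts tested. In females, in order of weight gain, it stood at 261.4, 189.0, 97.8, 57.2 and 68.2 CPM. In males it stood at 189.7, 121.2, 62.7, 114.0 and 38.5 CPM. Levels were lowest where the label was high in both sexes, with male 5 below male 4 at nearly the same label. The slope was -0.72 ± 0.13 per unit, with an unadjusted p of 0.000378 and an edgeR adjusted p of 0.751. With all 20 libraries in the fit it was -0.74, with an unadjusted p of 0.226. By sex it was -0.62 ± 0.14 in females and -1.02 ± 0.27 in males, a difference (female minus male) of 0.40 ± 0.31 with an unadjusted p of 0.228.

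Transcript transcript_HQ_Female_transcript4301/f9p0/2001 stood at 88.4, 113.5, 44.1, 29.1 and 46.0 CPM in females, in order of weight gain. In males it stood at 206.2, 170.8, 57.85, 89.7 and 59.9 CPM. In both sexes the 2 samples with the lowest labels held the highest levels, with no overlap with the other 3. The slope was -0.61 ± 0.13 per unit, with an unadjusted p of 0.00131 and an edgeR adjusted p of 0.751.

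**Figure D3:**
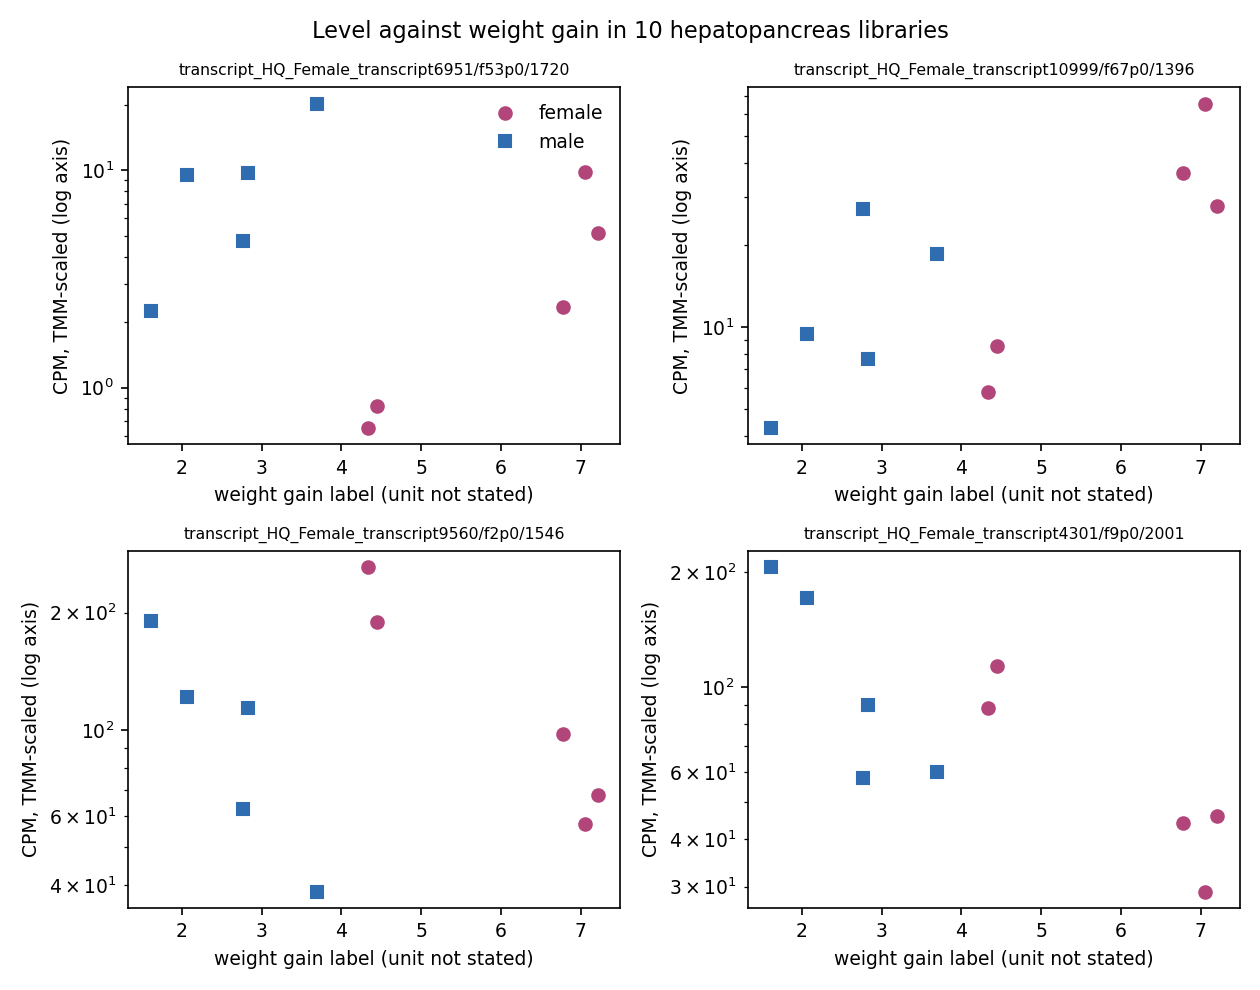
Level in TMM-scaled CPM (vertical, log axis) against the weight gain label (horizontal, unit not stated) of 4 transcripts in the 10 hepatopancreas libraries; each point is 1 library, circles female and squares male. In the upper panels the females at 6.78 to 7.21 lie above those at 4.33 and 4.45, and in the lower panels they lie below them.

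The choice of these 4 required a low p without each library, so the ranges that follow are a description and lend them no support. The slope of transcript_HQ_Female_transcript6951/f53p0/1720 ran from 0.96 to 1.22, with unadjusted p from 0.000295 to 0.00458. That of transcript_HQ_Female_transcript10999/f67p0/1396 ran from 0.86 to 1.1, with unadjusted p from 0.000425 to 0.0126. Those of transcript_HQ_Female_transcript9560/f2p0/1546 and transcript_HQ_Female_transcript4301/f9p0/2001 ran from -0.80 to -0.65 and from -0.71 to -0.56. DESeq2 called all 4 with all libraries, at adjusted p of 0.0037, 0.0037, 0.000161 and 0.00463 in the order described. In the gonad libraries, which carry weight gain labels of their own, the slopes of the same 4 transcripts were 0.09 ± 0.18, 0.07 ± 0.44, -0.24 ± 0.44 and 0.16 ± 0.22, with unadjusted p from 0.465 to 0.871. Whether the slopes differ between the tissues was not tested.

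The 405 transcripts at an unadjusted p under 0.05 were followed through the same 10 fits. Without female 5 or female 1, which hold the low labels of their sex, 144 and 160 of the 405 remained under 0.05. Without female 4 it was 210, and without female 3 it was 273. Leaving out a male kept 291 to 326 of them, and leaving out female 2 kept 342. Between 3 and 28 of the 405 no longer met the count filter in these fits and are among those not kept. In all 10 of these fits together, 74 of the 405 stayed under 0.05, 58 with a slope above 0 and 16 below. The number at an unadjusted p under 0.05 was 221 without female 5, 276 without female 1, 351 without female 4 and 526 without female 2, and edgeR called 0 transcripts for the slope within sex at an adjusted p of 0.05 in each of these 10 fits.

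**Figure D4:**
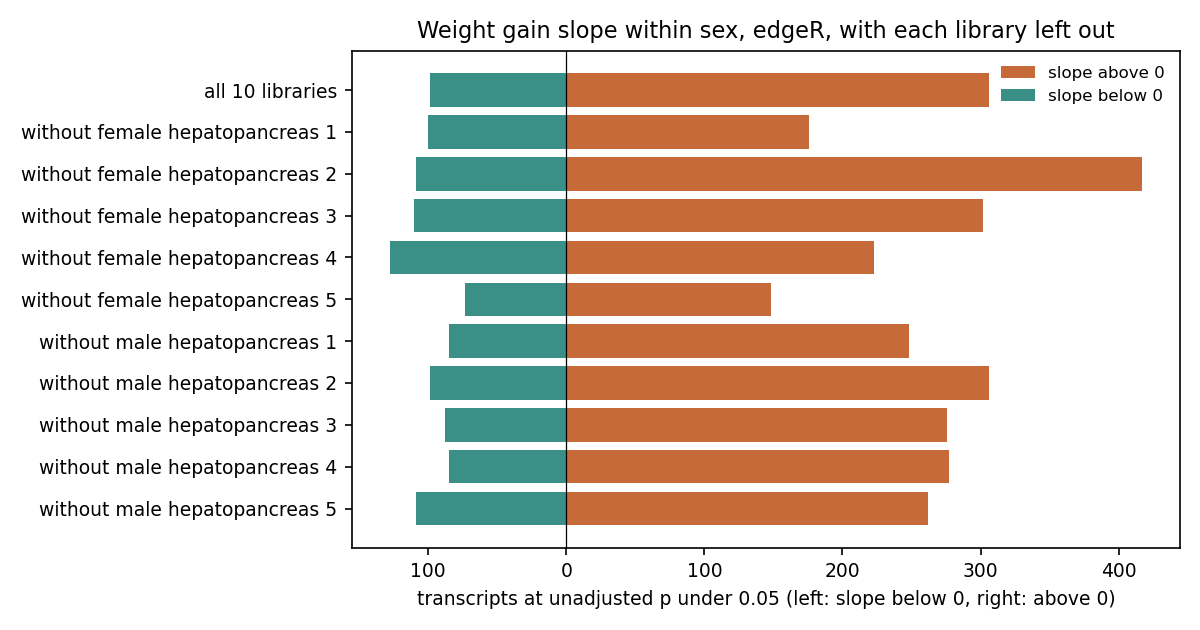
Number of transcripts at an unadjusted edgeR p under 0.05 for the slope within sex (horizontal; slopes below 0 to the left, above 0 to the right) with all 10 libraries and with each library left out (vertical). Slopes above 0 number 306 with all libraries, 148 without female 5 and 417 without female 2.

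Transcripts with slopes above 0 were mostly at their highest in females 3 and 4. Of the 306, female 4 held the highest level of 148 (48.4%) and female 3 of 85 (27.8%), against 12.5% and 17.3% over all transcripts tested. Male 2, the male with the highest label, held the highest level of 40 (13.1%). Of the 99 with slopes below 0, the highest level lay in female 5 for 33, female 1 for 23, male 1 for 22 and male 3 for 16. These are the samples with the low labels, and the choice of transcripts by slope fixes much of this order. In female 4 alone, 126 tested transcripts reached 10 CPM and at least 8 times the highest level of the other 9 libraries, against 28 in female 3 and at most 12 in any other library. Together they took 8.1% of the counts of female 4, and 56 of them were among the 306. Female 4 has the highest label, so their choice fixed a slope above 0 for all 126. Of the 126, 114 were present in a gonad, and 38 were in the class present in a gonad and in neither hepatopancreas group. Presence in a gonad was common among all 6582 tested: 4341 were present in all 4 groups and 417 were in that class. Testis 5 held the highest gonad level of 88 of the 126, a share not computed over all transcripts tested.

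The median length of the 306 was 1840 bases, that of the 99 was 1665, and that of all tested transcripts was 1634. The median of their mean levels was 5.37 CPM for slopes above 0 and 10.9 CPM for slopes below 0, against 10.3 CPM overall. Absolute slopes had a median of 0.89 for the 306 and 0.44 for the 99, compared with 0.13 over all transcripts.

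The second question was how the trend compared between the sexes. A slope of its own for each sex gave 0 calls in females and 0 in males by edgeR at an adjusted p of 0.05 (0% of 6582 each). At an unadjusted p under 0.05 there were 442 transcripts in females (6.72%), 342 above 0 (5.2%) and 100 below (1.52%). In males there were 117 (1.78%), 67 above 0 (1.02%) and 50 below (0.76%). DESeq2 called 105 in females and 15 in males. The median standard error of a slope was 0.21 in females and 0.39 in males, where the labels span only 2.08 units, so the male slopes are the less precise. The 2 counts do not show that the sexes differ: the difference of slopes was called for 0 of 6582 transcripts (0%) in edgeR, with 124 at an unadjusted p under 0.05 (1.88%), 75 above 0 (1.14%) and 49 below (0.744%). DESeq2 called 5. The balance of directions turned to 63 above 0 and 98 below without male 2.

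Slopes in females and in males rest on separate libraries, so each can be read in the other sex. Over all 6582 transcripts, the sign was the same in both sexes for 3459 (52.6%), and the slopes had a Spearman's rho of 0.11 and a Pearson's r of 0.13 across transcripts. Transcripts do not stand for independent samples, and both slopes share the scaling and the estimate of spread. Of the 342 transcripts with slopes above 0 at an unadjusted p under 0.05 in females, 245 (71.6%) also had a slope above 0 in males, with a median of 0.20. In the other direction, 51 of the 67 chosen in males (76.1%) had a slope above 0 in females, with a median of 0.22. For slopes below 0 the sign was shared by 50 of 100 and by 24 of 50. Without female 4, 165 of 257 (64.2%) transcripts chosen above 0 in females had a slope above 0 in males. An unadjusted p under 0.05 in both sexes was found for 14 transcripts with the same sign (11 above 0 and 3 below) and for 4 with opposite signs.

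**Figure D5:**
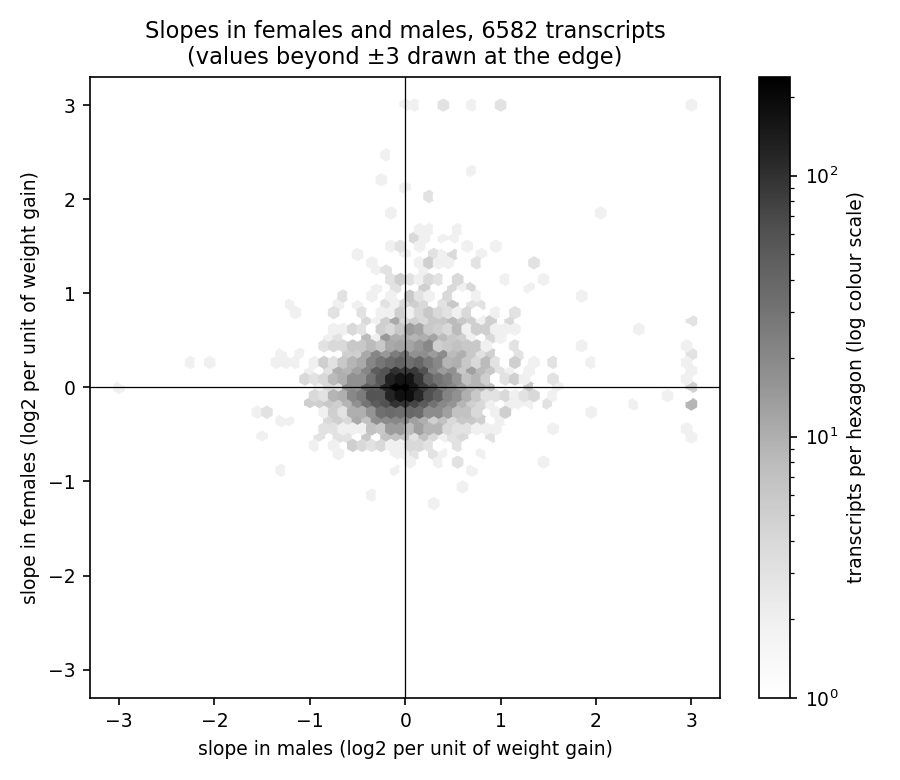
Slope in females (vertical) against slope in males (horizontal), both in log2 per unit of weight gain, for 6582 transcripts; the shade gives the number of transcripts per hexagon on a log scale, and values beyond 3 are drawn at the edge. The cloud centres near 0 in both sexes, and 52.6% of transcripts have slopes of the same sign.

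The transcripts that follow had the smallest unadjusted p for a difference of slopes in each direction, among those with a mean of at least 5 CPM. Their slopes had opposite signs in females and males, which this choice favours. None passed the adjusted test in edgeR, where all adjusted p were 1. Transcript transcript_HQ_Male_transcript5808/f2p0/1962 stood at 3.02, 1.87, 9.62, 9.47 and 9.11 CPM in females in order of weight gain, and at 18.6, 8.30, 10.01, 11.9 and 7.49 CPM in males. Its slope was 0.72 ± 0.15 in females and -0.48 ± 0.25 in males, a difference of 1.21 ± 0.29 (unadjusted p 0.00299), and 0.84 (unadjusted p 0.0688) without male 3. Transcript transcript_HQ_Female_transcript15518/f5p0/1189 had slopes of 0.87 ± 0.31 and -1.20 ± 0.48, a difference of 2.07 ± 0.57 (unadjusted p 0.00652). Male 3 alone held 26.4 CPM of it, against 3.88 to 6.75 CPM in the other males, and without male 3 the difference was 1.15 (unadjusted p 0.16).

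In the opposite direction, transcript_HQ_Female_transcript5543/f5p0/1766 was the most abundant of these. It stood at 409.2, 1156, 395.0, 161.1 and 66.1 CPM in females in order of weight gain and at 147.1, 154.7, 222.2, 313.9 and 1225 CPM in males. The male levels thus follow the labels throughout, and male 2 alone exceeds the other males by far. Its slope was -0.82 ± 0.30 in females and 1.47 ± 0.46 in males, a difference of -2.28 ± 0.55 (unadjusted p 0.00319), and -1.61 (unadjusted p 0.101) without male 2. Transcript transcript_HQ_Female_transcript21508/f3p0/809 ran from 3.25 to 6.77 CPM in females and from 4.94 to 9.34 CPM in males, with slopes of -0.29 ± 0.09 and 0.43 ± 0.18. Its difference was -0.72 ± 0.20 (unadjusted p 0.00698).

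The 50 most abundant transcripts, and those present in both hepatopancreas groups and in neither gonad, held smaller shares of low p than the whole set tested. Of the 50 most abundant transcripts, 0 had a slope above 0 and 1 a slope below 0 at an unadjusted p under 0.05, with a median slope of -0.03, against 6.15% and a median of 0.02 over all transcripts tested. Their slopes ran from -0.79 to 1.94. Of the 589 transcripts present in both hepatopancreas groups and in neither gonad, all of which were tested, 5 lay above 0 and 15 below 0 at that p (3.4%). The median slope of this class was -0.07, and 39.7% of its slopes were above 0. The smallest p of this class was that of transcript_HQ_Female_transcript9560/f2p0/1546. Its levels on library totals ran from 0.193 to 35.5 CPM in ovary and from 0 to 9.57 CPM in testis. Its hepatopancreas levels, from 38.5 CPM up, are TMM-scaled and cannot be set directly against those of the gonads. In the fits that left out a library, 32.3% (without female 2) to 47% (without female 5) of this class had slopes above 0. Whether this class differs from the others was not tested.

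Transcripts present in all 4 groups numbered 4341, with 130 above 0 and 56 below at an unadjusted p under 0.05 (4.28%) and a median slope of 0.0061, which was -0.0049 without female 3. Of the transcripts called by edgeR between female and male hepatopancreas, a list drawn from the same libraries, 1 of the 145 higher in males lay above 0 and 1 of the 144 higher in females lay below 0 at an unadjusted p under 0.05. Both shares (0.69% and 0.694%) lie under the 6.15% over all transcripts, but the choice of the list fixes part of this. The sex calls came from a fit without weight gain, which favours transcripts with little spread within a sex. Bulk RNA cannot tell fewer cells of a type from less RNA per cell.

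Transcripts present in a gonad and in neither hepatopancreas group held a larger share of low p. Of 1631 such transcripts, 417 passed the count filter, so the counts that follow describe those and not the class. At an unadjusted p under 0.05, 67 lay above 0 and 5 below (17.3%), with a median slope of 0.24. Their levels were low, with a median of 1.15 CPM. Without female 4, 311 passed the filter, with 29 above 0 and 6 below (11.3%, against 5.46% over all transcripts) and a median slope of 0.14. Without female 4 and male 5, 210 passed, with 17 above 0 and 9 below (12.4%, against 5.28%). The share was lowest without female 5, at 9.04% with 29 above 0 and 4 below (against 3.4%), and was 12.1% without female 1 (against 4.25%). Female 4 held 539 of the 1631 at 1 CPM or more, against a median of 186 in the other 9 libraries. A raised share was not particular to this class. The 1235 tested transcripts in none of the tissue classes above, with a median of 2.87 CPM, had 104 above 0 and 23 below (10.3%). Their median slope was 0.0875, and their share was 8.17% without female 4 (against 5.46%). Whether low level or tissue class goes with the share was not tested.

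Shares of low p were also read by the word classes of the IDs and by transcript length, with no test between the classes. Of 135 tested IDs with the word Male, 9 lay above 0 and 1 below at an unadjusted p under 0.05 (7.41%), against 6.13% of 6447 with the word Female. Of 77 tested IDs marked LQ, 1 lay above 0 and 1 below (2.6%), against 6.2% of 6505 marked HQ. In 4 bins of length with nearly equal numbers, from the shortest (up to 1192 bases) to the longest (over 2162 bases), the shares were 4.55%, 5.54%, 7.84% and 6.69%.

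The 98 transcripts that DESeq2 called for the slope within sex were compared with the edgeR result. In edgeR, 90 of them had an unadjusted p under 0.05, and their edgeR adjusted p was 0.751 or more. In 33 of the 98 the highest library exceeded the next by at least 5 times, a share not computed over all transcripts tested. Female 4 held the highest level of 44 (44.9%) and female 3 of 26 (26.5%), against 12.5% and 17.3% over all transcripts tested. These females carry the highest labels, so the choice by slope fixes part of this. Leaving out single libraries in DESeq2 gave 28 calls without female 5, 37 without female 4, 52 without female 1, 90 without female 3 and 209 without female 2, of which 11, 24, 22, 50 and 84 were among the 98. Without a male the calls numbered 59 to 84. Of the 98, 4 were called in all 10 of these fits.

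The DESeq2 calls of largest slope were shown as examples of what that tool passed. Transcript transcript_HQ_Female_transcript12941/f3p0/1362 stood at 973.1 CPM in female 4 and at 2.52 CPM or less in every other library, with no count in females 1 and 5 and in males 3, 4 and 5. A count of 0 allows up to 0.245 CPM in female 1 (3 counts per library). DESeq2 gave a slope of 4.76 (adjusted p 0.02), and edgeR gave 3.95 ± 1.73 (unadjusted p 0.0477, adjusted 0.802). Transcript transcript_HQ_Male_transcript5671/f2p0/1995 had counts in female 5 (28.1 CPM) and in males 1, 3, 4 and 5 (0.938, 112.3, 62.4 and 59.0 CPM) and none in the other 5 libraries. Its slope was -4.91 in DESeq2 (adjusted p 0.0037) and -3.33 ± 1.20 in edgeR (unadjusted p 0.0218, adjusted 0.77).

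Whole-library measures, 7 in all, were set against weight gain by permuting the labels within each sex. None passed an adjusted p of 0.05 over the 7 tests. The third principal component (12.9% of variance) had the smallest p, with a slope of -18.4 per unit and a two-sided exact permutation p of 0.169 (adjusted 0.659). Female 4 lay at -86.9 on it, and the other libraries lay between -15.1 and 47.5. Its slope was -7.29 without female 4 (exact p 0.244), and the unadjusted exact p was 0.0104 without female 2 and 0.0385 on ranks of weight gain. Library totals had a slope of 901400 counts per unit (exact p 0.257, adjusted 0.659), and the number of transcripts at 1 CPM or more had a slope of 144 (exact p 0.377, adjusted 0.659). The first was 249300 without female 1, and the second was 35.4 without female 4. Detected transcripts numbered 5720 to 7095 in females, the most in female 4, and 5887 to 6324 in males. The share of counts in the 100 most abundant transcripts had a slope of -0.232 percentage points (exact p 0.853), and averaged 61.9% ± 4.21 in females and 69.1% ± 4.38 in males (SD, n = 5 each, no test made between the sexes). The share in IDs with the word Male had a slope of 0.466 points (exact p 0.634). Principal components 1 and 2 had exact p of 0.306 and 0.847.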

How the data were processed

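Libraries were made from total RNA with a directional kit, per the labels' protocols. The deposited table holds estimated counts per transcript, made by the authors without normalisation. Tools listed, with no role, per the submitters' processing notes were Bowtie 0.12.2 and DESeq 1.10.1. Which program counted reads, and on which transcript set, is not given in the sources used here. The transcript length is a deposited column in bases.

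Estimated counts of the 10 hepatopancreas libraries were rounded and tested with edgeR 4.0.16 (R 4.3.3, quasi-likelihood, TMM, library sizes from all transcripts, Benjamini-Hochberg over 6582 transcripts), with sex and weight gain as terms, or a mean and slope per sex. A call is an adjusted p under 0.05. The standard error is the slope over the square root of F. CPM is TMM-scaled, except in presence, detection and the levels in ovary and testis, which use library totals. Whole-library slopes were tested over all 14400 arrangements of labels within sex. Principal components used log2 CPM with a prior count of 2, and were computed once, from all 10 libraries, also where a library was left out of a slope. The scripts were tested on simulated data.

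At most 2 IDs per direction were named: for the slope by the conditions in the text, for the difference between sexes by smallest p at 5 CPM or more, and for DESeq2 1.42.0 by largest slope. Members and lists were chosen with earlier results of these data known. Alternatives were DESeq2, its size factors, totals without TMM, no filter, 50 counts, all 20 libraries, the replicate number as a block, other scales of weight gain and leaving out libraries. Bias-adjusted quasi-likelihood and DESeq2 without each library were chosen after seeing the data, as were the gonad class and female 4's own transcripts. Nothing says that replicates are separate animals, so p-values measure only the spread between these samples. No 2 libraries held identical values.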

Additional observations from a re-analysis of the deposited data

Results flagged for a closer look

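In groups of 5 libraries, 38 sets of values were checked for a sample far from the others of its sex, and 7 were marked. Chance marks about 1 in 20 groups, a rate that does not apply to 4 of the 7, which are levels of transcripts chosen for an extreme slope or difference of slopes. Nor does it apply to the gonad share of female 4, since that class was chosen after seeing the data. Female 4 held 5.901% of its counts in transcripts present in a gonad and in neither hepatopancreas group, and its level of transcript_HQ_Female_transcript12941/f3p0/1362 was 973.1 CPM, both far above the other females. Female 3 lay at -110 on the second principal component, away from the other females. Male 5 lay at 18.81 on the first component, away from the other males. Female 5 was the only female with counts of transcript_HQ_Male_transcript5671/f2p0/1995, at 28.08 CPM. Male 3 held 26.42 CPM of transcript_HQ_Female_transcript15518/f5p0/1189, and male 2 held 1225 CPM of transcript_HQ_Female_transcript5543/f5p0/1766, each the highest male by a wide gap. The last 2 transcripts were chosen for their difference of slope between the sexes and the other 2 for the largest DESeq2 slopes, and male 2 and male 3 carry the highest and lowest male labels.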

How the results depend on the processing

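The number of edgeR calls for the slope within sex and for the difference between sexes was 0 in all edgeR alternatives run. DESeq2 called 98 for the slope within sex, 5 for the difference, 105 in females and 15 in males, and for the slope within sex it called 52, 209, 90, 37 and 28 without females 1 to 5 in turn and 59, 75, 76, 74 and 84 without males 1 to 5. In females, edgeR called 6 without a filter and 0 to 3 when a library was left out (3 without female 1, 1 without female 3 and 1 without female 5). The cause was not tested. Transcripts at an unadjusted p under 0.05 for the slope within sex, 405 as reported, numbered 994 without a filter, 223 at 50 counts, 229 on log2 weight gain, 260 in SD units and 498 with bias-adjusted quasi-likelihood, and 221 to 526 when a library was left out. In males, 117 became 224 when the 5 males were fitted alone, and in females 442 became 228.

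The replicate number as a replicate block gave 0 calls in each of the 4 results, with 454 transcripts at an unadjusted p under 0.05 for the slope within sex, of which 120 were among the 405. The split of 306 above and 99 below 0 became 255 and 199 under the block, and the number at that p went from 124 to 421 for the difference, from 117 to 608 in males and from 442 to 382 in females. Same-numbered female and male samples had correlations of deviations from -0.0663 to 0.0912, so the numbers were not taken as pairs. Of the 5 females, 1 correlated best with the male of its own number.

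The slope of the share in the 100 most abundant transcripts (-0.232) turned to 0.013 on ranks, 0.135 in SD units, 0.229 for the top 20 and 0.535 without female 4 and male 5, and ran from -1.16 to 0.786 when a library was left out. That of IDs with Male ran from -0.0896 to 0.829 and that of component 2 from -17.3 to 4.66, both turning without female 3. Slopes of library totals ran from 249300 to 1282000 when a library was left out, those of detected transcripts from 35.4 to 213.8, and those of component 3 from -23.3 to -7.29. The difference between sexes, with 75 above and 49 below 0, had 63 and 98 without male 2 and 136 and 146 in DESeq2, and males, with 67 and 50, had 38 and 64 without male 3. The value each named transcript was chosen for, a slope within sex or a difference of slopes, kept its direction in the alternatives in which it was tested. The DESeq2 examples failed the count filter in several of them. Transcript transcript_HQ_Female_transcript12941/f3p0/1362 was not tested without female 4, which held nearly all of it, and transcript_HQ_Male_transcript5671/f2p0/1995 was not tested without female 5. Female slopes rest on 2 low labels, and the depth of transcripts near 1 CPM limits what can be seen.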
